A study of Mus musculus with 8 samples.

Results

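The 10 enzymes described here take nucleotides, nucleosides and bases apart, and their transcripts were compared in the livers of mice on 2 diets. The 10 genes, Tymp, Upp2, Dpyd, Dpys, Upb1, Nt5c2, Nt5e, Pnp, Xdh and Uox, were chosen by symbol for their place in the breakdown of pyrimidines and purines, and all 10 are among the 11784 genes listed. The mice were male C57BL/6J, 9 weeks of age when the diets began, with no transgene or drug named in the labels. In the Control group, 4 mice (F129, F2212, F7111 and F2110) ate an amino acid-defined Control diet. In the Low AA group, 4 mice (H1126, H828, H817 and H1315) ate a diet with fewer calories from amino acids and more from carbohydrate. Both groups were killed in the morning after 4 months, having fasted overnight for about 16 hours, so every value below is from a fasted liver. Tymp, Upp2 and Nt5c2 are among the genes that the study drew for their change in these same mice, so the differences of these 3 are described here and are not independent evidence.

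Nucleotides first lose their phosphate to a 5'-nucleotidase, and a phosphorylase then splits the nucleoside into a base and a sugar phosphate. Uracil and thymine are reduced, opened and cleaved in the cytosol of hepatocytes to ammonia, carbon dioxide and a small beta-amino acid. Hypoxanthine is instead oxidised to urate, which the mouse liver oxidises further, and the liver is the main site of both routes.

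The deposited values have the form of read counts multiplied by a factor for each mouse and rounded, as inferred from the values themselves, and are called scaled read counts here. The sum over all genes lay between 28361406 and 29485422 for Control mice and between 27876664 and 30799385 for Low AA mice. The diets were compared by limma after taking log2(value + 1), a scale that understates the change of low genes, and p-values were adjusted over all genes. Positive log2 fold changes are higher on Low AA, and a gene was called at an adjusted p under 0.05. Of the 6 hepatocyte markers all were listed, with a sum of 2117493 to 2555350 scaled read counts per mouse across the diets. Control mouse F2212 stood apart with 36587 scaled read counts of the pancreatic gene Cela1, against 130 to 288 in the other 7 mice, so the values without it are given below.

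None of the 10 enzymes was called (limma, smallest adjusted p = 0.104), where 0.399% of all genes were called. The study, which drew Tymp, Upp2 and Nt5c2 for their change, based its pathway heatmap on genes differentially expressed at an FDR under 0.05. Its own test was not repeated here, so the absence of calls holds for this limma fit only. Higher and lower were evenly divided, with 5 enzymes above and 5 below 0 and a median log2 fold change of -0.02, against 0.002 over all genes. At an unadjusted limma p under 0.05 there were 4 enzymes, Nt5c2 and Tymp higher and Upp2 and Xdh lower, where 11.8% of all genes reached that level. The exact permutation test, two-sided, gave p = 0.0286 for Nt5c2 and for Tymp, 0.0571 for Upp2 and 0.0857 for Xdh. In 2 enzymes, Tymp and Nt5c2, the 4 Low AA mice all lay above the 4 Control mice, where 6.81% of all genes did not overlap in either direction and 3.26% did not overlap and were higher. Of the 7 enzymes that the study did not draw, 1 had an unadjusted p under 0.05, Xdh, and 0 were without overlap. Fewer cells of a type and less RNA per cell cannot be told apart in whole liver.

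**Figure D1:**
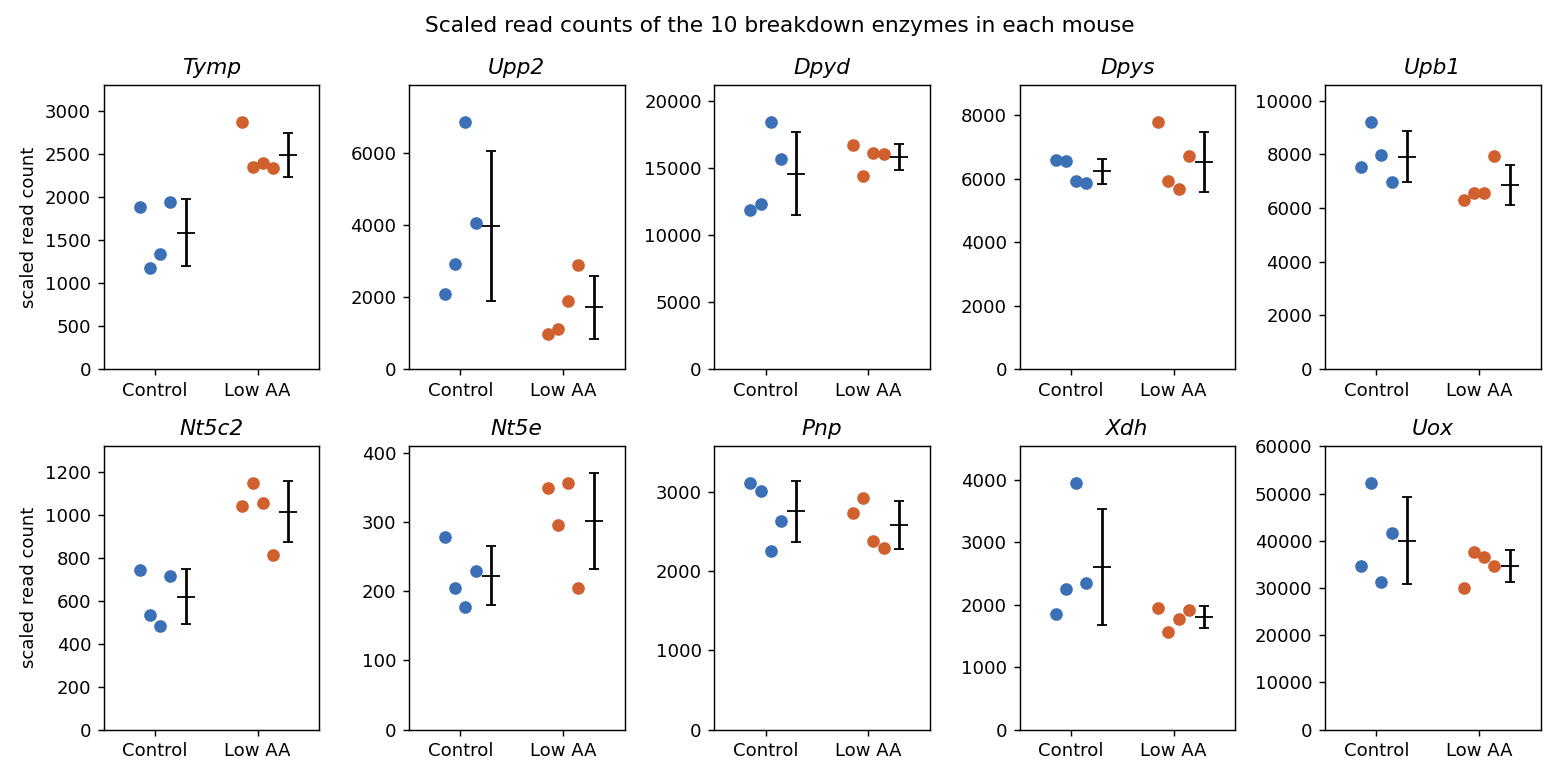
Scaled read counts (vertical axes, each from 0) of the 10 enzymes in the 4 Control mice (blue) and the 4 Low AA mice (orange), with the mean and SD of each diet in black. Tymp and Nt5c2 do not overlap between diets, and Upp2 runs from 961 to 6875.

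Levels were ranked between enzymes per kilobase of the longest coding transcript of each gene in the GENCODE annotation. The ratios between enzymes given further below are not corrected for length, so they compare mice and do not rank the enzymes. Uox, urate oxidase, stood first with a median of 13034 scaled read counts per kilobase and a range of 10960 to 19106 over the 8 mice. Next were the 3 enzymes of the reductive pyrimidine route, Dpyd with a median of 3537, Dpys with 2534 and Upb1 with 2383 scaled read counts per kilobase. Dpyd was above Dpys in 7 of 8 mice and Dpys above Upb1 in 6 of 8, and the ranges of neighbours overlapped, so their order is not firm. Tymp, Upp2 and Pnp followed at medians of 1051, 996.6 and 913.7 scaled read counts per kilobase, with Tymp above Upp2 in 4 of 8 mice and Upp2 above Pnp in 4 of 8. Xdh had a median of 420 scaled read counts per kilobase, and its lowest mouse, at 340.2, was above the highest mouse of Nt5c2, at 156.4. The 5'-nucleotidases were last, Nt5c2 with a median of 105.8 and Nt5e with 63.5 scaled read counts per kilobase. These levels rest on 1 transcript per gene, and Nt5c2 in particular has 8 coding transcripts, the longest of 7353 bases.

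**Figure D2:**
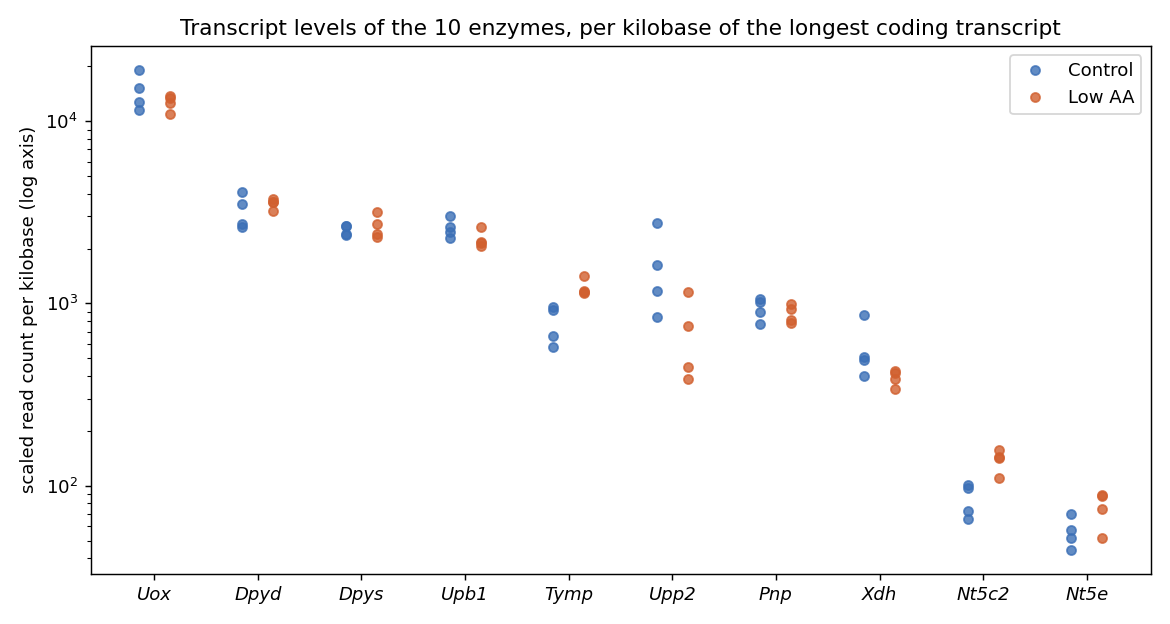
Scaled read count per kilobase of the longest coding transcript (vertical log axis) for the 10 enzymes, in order of their median over the 8 mice, with Control mice in blue and Low AA mice in orange. The levels run from 44.6 for the lowest Nt5e mouse to 19106 for the highest Uox mouse.

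The first step on pyrimidine nucleosides is taken by phosphorylases. Upp2 encodes uridine phosphorylase 2, an enzyme abundant in liver that splits uridine into uracil and ribose 1-phosphate, and its gene lies on the plus strand of chromosome 2 (GRCm38, chr2:58567298-58792971). The Low AA mice H1126, H828, H817 and H1315 had 961, 1125, 1881 and 2886 scaled read counts of Upp2. The Control mice F129, F2212, F7111 and F2110 had 2093, 2918, 6875 and 4053. The 3 lowest mice were all Low AA, but H1315 lay above F129, so the diets overlapped. The mean was 1713 ± 878 on Low AA and 3985 ± 2088 on Control (SD, n = 4 each), and the fitted level was 2.32-fold higher on Control (log2 fold change -1.21, SE 0.40, 95% interval -2.10 to -0.33, limma adjusted p = 0.258). The exact permutation test, two-sided, gave p = 0.0571, where the smallest that 4 mice against 4 allow is 0.0286. Upp2 was the most variable of the 10 enzymes, with a within-diet SD of 0.73 on the log2 scale, larger than that of 98.0% of all genes. Without F7111, the mouse with the most Upp2, the log2 fold change was -0.90, and without H1315 it was -1.51.

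For Upp2, 2 starts are annotated in RefSeq, far apart on the chromosome, and the table gives 1 value for the whole gene. They are shown because Upp2 had the largest difference in size of the 10 enzymes, and the values do not say which start was used. The 250 bases before each start are printed 5' to 3' with motif letters in capitals, searched on both strands. The letters marked are TATAAA for the TATA box, CCAAT for the box of that name and GGGCGG for the GC box.
Upp2, outer start, GRCm38.p6, plus strand, chr2:58567084-58567333: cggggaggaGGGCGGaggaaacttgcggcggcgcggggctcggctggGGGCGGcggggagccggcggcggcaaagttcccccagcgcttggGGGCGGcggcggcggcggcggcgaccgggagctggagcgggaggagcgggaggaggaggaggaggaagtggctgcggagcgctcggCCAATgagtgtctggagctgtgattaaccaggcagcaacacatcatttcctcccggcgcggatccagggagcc
Upp2, inner start, GRCm38.p6, plus strand, chr2:58754934-58755183: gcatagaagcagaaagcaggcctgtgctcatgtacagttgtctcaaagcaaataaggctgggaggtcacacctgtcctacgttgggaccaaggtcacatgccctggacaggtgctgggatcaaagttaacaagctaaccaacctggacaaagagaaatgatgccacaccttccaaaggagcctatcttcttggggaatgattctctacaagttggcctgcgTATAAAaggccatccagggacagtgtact
The outer window holds 3 GC boxes and 1 CCAAT box, and the inner window holds 1 TATA box, from 29 to 24 bases before the start. Among 32851 RefSeq windows of this length, 12.4% hold a TATAAA on either strand, 33.9% a CCAAT and 32.7% a GGGCGG. The E-box CACGTG, the D-box TTANGTAA and the amino acid response element TGATGNAA were searched too, and neither Upp2 window holds these letters, which 6.02%, 2.06% and 3.45% of windows do.

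Upp2 was set beside the clock genes, since all livers were taken in 1 part of the day. All 14 listed clock genes were in the table and 0 were called. At an unadjusted p under 0.05 there was 1, which was lower. Their summed level was 13597 to 16383 scaled read counts on Low AA and 12521 to 20452 on Control, but clock genes peak at different times of day, so a sum can hide a difference in phase. By sign, 7 were higher and 7 lower. Named after their values were seen, Npas2, Arntl and Clock, which encode activators of the clock, had log2 fold changes of 0.80, 0.78 and 0.47, and the repressor gene Cry1 had 0.58. The repressor genes Ciart (listed under the older symbol Gm129), Per3 and Cry2 had -0.80, -0.64 and -0.42 (limma adjusted p between 0.464 and 0.784 for these 7 genes). The SE of Ciart was 0.84. Of the remaining clock genes beside Dbp, Per1, Nr1d1 and Hlf had 0.13, 0.02 and 0.02, and Nr1d2, Tef and Per2 had -0.06, -0.34 and -0.355. Dbp, a clock output transcription factor named in the same way, had 184, 435, 454 and 656 scaled read counts in H1126, H828, H817 and H1315. In F129, F2212, F7111 and F2110 it had 451, 1521, 1002 and 758, a log2 fold change of -1.11 ± 0.42 (SE, limma adjusted p = 0.321). The same 2 mice, H1126 and H828, were lowest for Upp2 and for Dbp, and the highest mouse differed, F7111 for Upp2 and F2212 for Dbp. Both genes were chosen with their lower levels on Low AA known, so shared low mice of that diet are no separate evidence. The part of clock phase in the Upp2 values was not tested.

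Tymp encodes thymidine phosphorylase, which splits thymidine into thymine and deoxyribose 1-phosphate, and lies on the minus strand of chromosome 15 (chr15:89371931-89377039). The Low AA mice, in the same order, had 2875, 2356, 2398 and 2334 scaled read counts of Tymp. The Control mice had 1882, 1174, 1342 and 1949. All 4 Low AA mice were above all 4 Control mice, with a gap from 1949 to 2334. The mean was 2491 ± 258 on Low AA and 1587 ± 387 on Control (SD, n = 4 each), a fitted 1.6-fold higher level on Low AA (log2 fold change 0.68, SE 0.17, 95% interval 0.31 to 1.05, limma adjusted p = 0.131). With each mouse left out in turn the log2 fold change lay between 0.54, without F2212, and 0.79, without F2110.

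Part of the Tymp transcript belongs also to its neighbour. Sco2, a gene for a copper protein in the assembly of cytochrome c oxidase, lies on the same strand and shares 856 exon bases with Tymp. Of the 1938 stretches of 100 bases in the longest Tymp transcript, 758, or 39.1%, occur identically in a Sco2 transcript, and reads here were 100 bases long. Sco2 had 2423, 1441, 2153 and 2295 scaled read counts in the Low AA mice and 1322, 1304, 786 and 1282 in the Control mice. It too was higher in every Low AA mouse than in every Control mouse, with a log2 fold change of 0.83 ± 0.21 (SE, limma adjusted p = 0.133). The submitters' processing notes name RSEM 1.2.6, but the sources used here do not describe how reads that both genes share were divided. The values of both genes are therefore uncertain, and the part of shared reads in the Tymp difference was not tested. Ncaph2, on the opposite strand, shares 535 exon bases with Tymp and had a log2 fold change of 0.02 ± 0.10 (SE, limma adjusted p = 0.962). Sco2 and Ncaph2 were named for their overlap in the annotation.

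**Figure D3:**
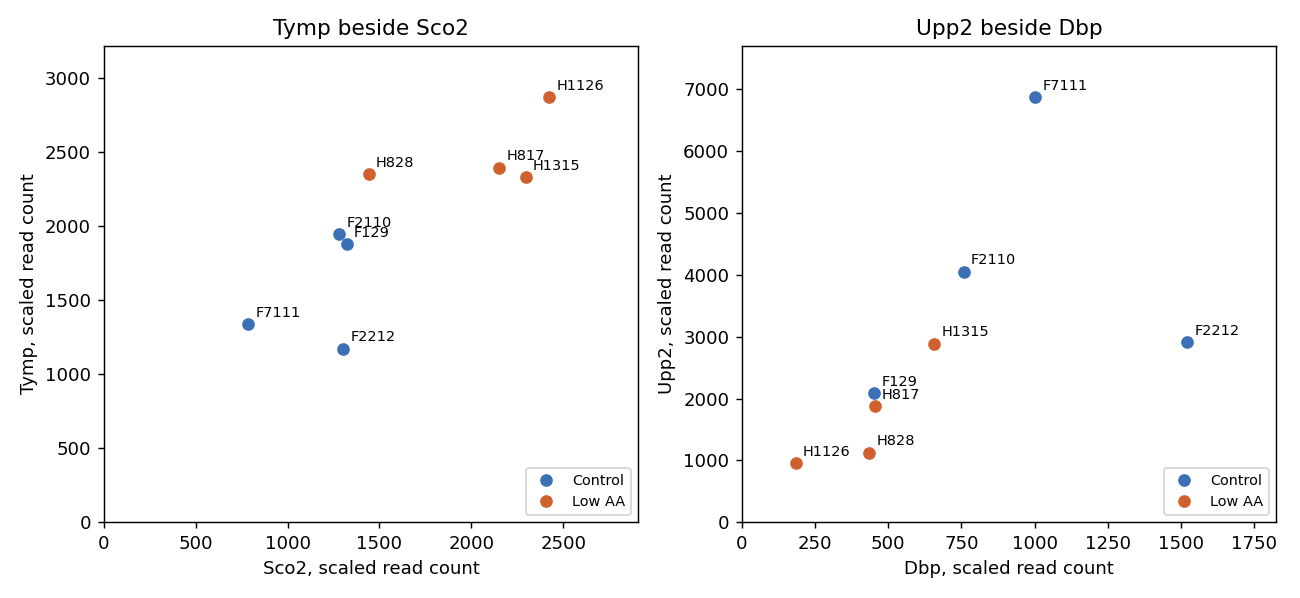
Scaled read counts of Tymp against its overlapping neighbour Sco2 (left) and of Upp2 against the clock output gene Dbp (right), 1 labelled point per mouse, Control in blue and Low AA in orange. H1126 is highest for both Tymp and Sco2, and H1126 and H828 are lowest for both Upp2 and Dbp.

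The Tymp start is shown for comparison with the Upp2 starts, since the log2 fold changes of the phosphorylase genes had opposite signs.
Tymp, GRCm38.p6, minus strand, chr15:89377037-89377286: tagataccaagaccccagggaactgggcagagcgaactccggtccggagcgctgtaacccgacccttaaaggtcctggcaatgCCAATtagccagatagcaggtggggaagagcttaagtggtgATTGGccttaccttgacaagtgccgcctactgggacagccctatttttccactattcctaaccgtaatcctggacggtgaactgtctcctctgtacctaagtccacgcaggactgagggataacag
This window holds 2 CCAAT boxes, 1 on each strand, and none of the other motifs searched.

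Within a mouse the ratio of the phosphorylase counts does not depend on the scaling between mice, but it is not corrected for transcript length. The ratio of Upp2 to Tymp scaled read counts was 0.334, 0.477, 0.784 and 1.24 in H1126, H828, H817 and H1315. It was 1.11, 2.49, 5.12 and 2.08 in F129, F2212, F7111 and F2110. The medians were 0.631 on Low AA and 2.28 on Control, and only H1315 and F129 crossed. Upp2 and Tymp were both drawn by the study for their change, and their log2 fold changes have opposite signs. A ratio that differs between the diets follows from that choice and is no separate evidence. The reads that Tymp shares with Sco2 enter the ratio too. Upp1, the paralog of Upp2 found in many tissues, was listed at 32 to 54 scaled read counts on Low AA and 32 to 69 on Control, with a log2 fold change of -0.10 ± 0.26 (SE, limma adjusted p = 0.932).

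The bases released by the phosphorylases enter the reductive route, and none of its 3 enzymes was called. Dpyd, dihydropyrimidine dehydrogenase, which reduces uracil and thymine in the rate-limiting step (chr3:118562129-119432924), had 16747, 14428, 16115 and 16088 scaled read counts in the Low AA mice. The Control mice had 11848, 12292, 18449 and 15685, so all 4 Low AA mice lay within the Control range. The log2 fold change was 0.14 (SE 0.15, 95% interval -0.18 to 0.47, limma adjusted p = 0.776). The Control mice were the more scattered, with an SD of 3103 against 992 on Low AA (n = 4 each).

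Dpys, dihydropyrimidinase, opens the reduced ring (chr15:39768487-39857470). Its scaled read counts were 7792, 5933, 5687 and 6729 in the Low AA mice and 6582, 6564, 5929 and 5867 in the Control mice. The log2 fold change was 0.06 (SE 0.12, 95% interval -0.20 to 0.31, limma adjusted p = 0.895), and it was -0.03 without H1126, the mouse with the most Dpys. Upb1, beta-ureidopropionase, cleaves the opened ring to beta-alanine or beta-aminoisobutyrate (chr10:75401115-75441679). It had 6311, 6543, 6575 and 7953 in the Low AA mice and 7523, 9209, 7973 and 6975 in the Control mice. The 3 lowest mice were Low AA and the highest was F2212, with a log2 fold change of -0.21 (SE 0.12, 95% interval -0.47 to 0.05, limma adjusted p = 0.538). The intervals of these 3 enzymes lay between -0.47 and 0.47 on the log2 scale.

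The end products of this route are taken on by Agxt2, which transaminates beta-aminoisobutyrate, by Abat, which transaminates beta-alanine, and by Aldh6a1, which oxidises the semialdehydes. None was called. Agxt2 had the largest difference, with 1294 to 2131 scaled read counts on Low AA and 1880 to 2723 on Control (log2 fold change -0.33, SE 0.18, limma adjusted p = 0.535). The log2 fold changes of Abat and Aldh6a1 were -0.15 and -0.10 (limma adjusted p = 0.843 and 0.813).

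Neither of the 5'-nucleotidases among the 10 enzymes was called. Nt5c2, cytosolic 5'-nucleotidase II, which removes phosphate from IMP and GMP, lies on the minus strand of chromosome 19 (chr19:46883317-47015153). The Low AA mice had 1042, 1150, 1056 and 813 scaled read counts, and the Control mice had 743, 536, 484 and 717. The diets did not overlap, with the gap between F129 at 743 and H1315 at 813. The mean was 1015 ± 143 on Low AA and 620 ± 129.2 on Control (SD, n = 4 each), a fitted 1.65-fold higher level on Low AA (log2 fold change 0.72, SE 0.16, 95% interval 0.36 to 1.09). This was the smallest adjusted p of the 10 enzymes (limma adjusted p = 0.104), and it ranged from 0.0815 without H1315 to 0.319 without H817. No stretch of 100 bases of the longest Nt5c2 transcript occurs in a transcript of another gene. On the opposite strand Ina shares 456 exon bases with Nt5c2, and Ina was not listed.

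Nt5e encodes CD73, the enzyme on the cell surface that turns AMP into adenosine (chr9:88327197-88372092). The Low AA mice had 349, 296, 357 and 205 scaled read counts and the Control mice 278, 205, 178 and 229. Except for H1315, which at 205 was level with F2212, the Low AA mice were above all Control mice. The log2 fold change was 0.42 (SE 0.20, 95% interval -0.02 to 0.87, limma adjusted p = 0.448), and 0.60 without H1315 (limma adjusted p = 0.182). CD73 is known from endothelial cells, fibroblasts and lymphocytes as well as hepatocytes. The summed endothelial markers, 6 of 6 listed, ran from 5946 to 6600 scaled read counts on Low AA and from 4858 to 6945 on Control. The summed stellate cell and fibroblast markers, 6 of 6 listed, ran from 7814 to 9783 and from 7550 to 10024. The 2 of 5 lymphocyte markers that were listed summed to 291 to 422 and to 246 to 449. No marker of these lists was called, and the part of other cell types in the Nt5e values was not tested.

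None of the other 5'-nucleotidases was called. Nt5c, Nt5m and Nt5c3b, listed under the older symbol Nt5c3l, had log2 fold changes of 0.06, 0.17 and 0.35 (limma adjusted p = 0.939, 0.812 and 0.696). Nt5c3, which acts on pyrimidine nucleotides, had 583 to 760 scaled read counts on Low AA and 521 to 731 on Control (limma adjusted p = 0.9995). Nt5c1a and Nt5c1b were not listed.

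The 3 purine enzymes had negative log2 fold changes, and none was called. Pnp encodes purine nucleoside phosphorylase, which splits inosine and guanosine (chr14:50931082-50965237). The Low AA mice had 2737, 2926, 2381 and 2291 scaled read counts of Pnp and the Control mice 3119, 3010, 2260 and 2639, so the diets were mixed. The log2 fold change was -0.09 (SE 0.13, 95% interval -0.37 to 0.19, limma adjusted p = 0.845). Of the 2843 stretches of 100 bases in its longest transcript, 22.1% occur in another gene, 7.84% in the paralog Pnp2 and 21.8% in the gene model Gm49342, which was not listed. Pnp2 was listed at 57, 61, 65 and 98 in the Low AA mice and at 60, 37, 36 and 45 in the Control mice (log2 fold change 0.64, SE 0.23, limma adjusted p = 0.304). The submitters name RSEM 1.2.6 but the sources used here do not describe how shared reads were divided, so both values are uncertain.

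Xdh encodes xanthine dehydrogenase, which makes urate from hypoxanthine by way of xanthine (chr17:73883895-73950196). The Low AA mice had 1948, 1565, 1771 and 1916 scaled read counts, and the Control mice had 1845, 2259, 3955 and 2351. Except for F129, which lay among the Low AA mice, the Control mice were above all Low AA mice. The log2 fold change was -0.48 (SE 0.20, 95% interval -0.92 to -0.03, limma adjusted p = 0.392). It rested in part on F7111, the mouse with the most Upp2 and the most Xdh, and was -0.26 without it (limma adjusted p = 0.402).

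Uox encodes urate oxidase, which oxidises urate in mice and has been lost in humans (chr3:146570426-146632305). It had 29997, 37597, 36614 and 34564 scaled read counts in the Low AA mice and 34734, 52293, 31336 and 41652 in the Control mice. Its mean over the 8 mice was above that of 99.2% of all genes in the table, on the scale of scaled read counts without correction for length. The log2 fold change was -0.18 (SE 0.16, 95% interval -0.54 to 0.17, limma adjusted p = 0.736). The highest mouse was F2212, and without it the log2 fold change was -0.04 (limma adjusted p = 0.935). Xdh to Uox ratios, not corrected for length, were 0.0416 to 0.0649 on Low AA and 0.0432 to 0.126 on Control. Only F7111 was above 0.0649. The next steps after Uox, Urah and Urad, listed under the older symbols 1190003J15Rik and Prhoxnb, had log2 fold changes of -0.03 and 0.14 (limma adjusted p = 0.964 and 0.784), and Allc was not listed.

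**Figure D4:**
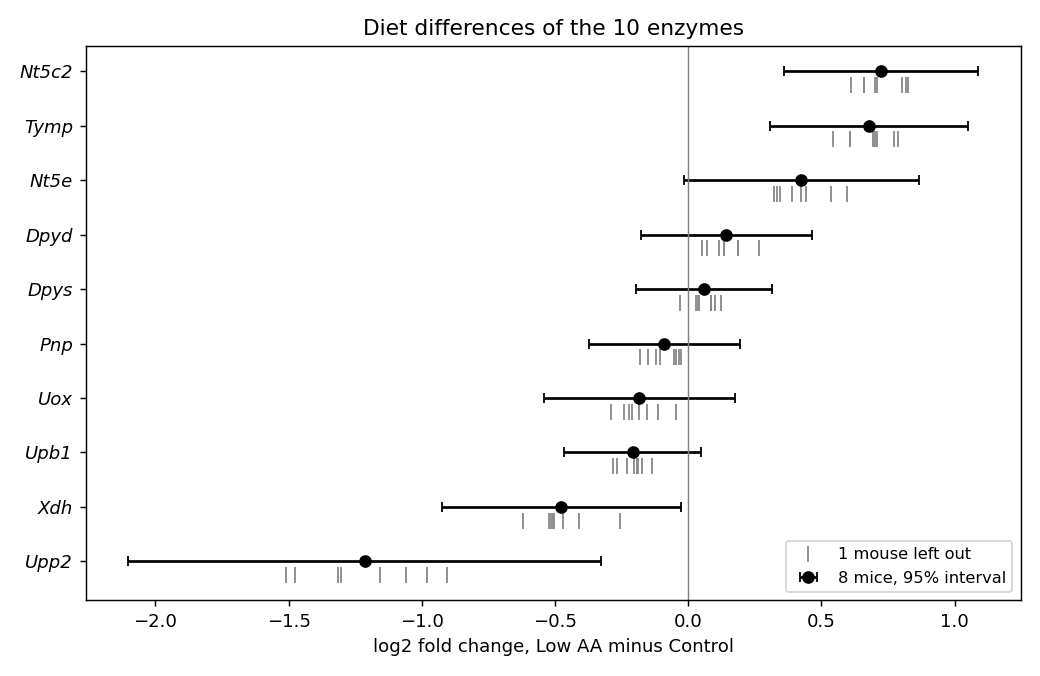
Log2 fold changes, Low AA minus Control, of the 10 enzymes (black points) with 95% intervals from limma, and the values with each of the 8 mice left out in turn (grey ticks). The intervals of Nt5c2, Tymp, Xdh and Upp2 leave out 0 before adjustment, and the ticks of Dpys cross 0.

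Without mouse F2212, in which Cela1 was high, the log2 fold changes of Tymp, Nt5c2, Upp2 and Xdh were 0.54, 0.66, -1.32 and -0.52. None of the 10 enzymes was called by limma in that fit, where 77 of the 11784 genes were. Those of Dpyd, Dpys, Upb1, Nt5e and Pnp were 0.07, 0.08, -0.13, 0.39 and -0.04.

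The other genes of nucleotide metabolism were taken from 12 lists of 95 genes in all, 83 of them in the table and 73 of these not among the 10 enzymes. Of the 73, 0 were called. At an unadjusted p under 0.05 there were 5 higher and 4 lower, 12.3% of the 73 against 11.8% of all genes. Without overlap between diets there were 3 higher and 1 lower, 5.48% against 6.81%. Their median log2 fold change was 0.03, with 40 higher and 33 lower.

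The genes without overlap were Alpl, Enpp3, Ada and Rrm1. Alpl, tissue-nonspecific alkaline phosphatase, which removes phosphate from AMP outside the cell, had 877, 912, 909 and 827 scaled read counts on Low AA and 562, 641, 650 and 616 on Control. Its log2 fold change was 0.51 ± 0.09 (SE), the closest of all 83 listed genes to the threshold (limma adjusted p = 0.0510), and it too was drawn by the study for its change. Enpp3, an ectoenzyme that cleaves extracellular nucleotides, had 1131, 1234, 923 and 1275 on Low AA and 1523, 1312, 1956 and 1680 on Control (log2 fold change -0.50, SE 0.14, limma adjusted p = 0.191). Ada, adenosine deaminase, was listed at 64 to 83 on Low AA and 48 to 63 on Control (log2 fold change 0.32, SE 0.16, limma adjusted p = 0.499). Rrm1, the large subunit of ribonucleotide reductase, was at 262 to 298 and at 176 to 255 (log2 fold change 0.30, SE 0.14, limma adjusted p = 0.421).

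No gene of synthesis or salvage was called. The 15 purine synthesis genes had a median log2 fold change of 0.04 and a range of -0.31 to 0.42, with 0 called. The 6 pyrimidine synthesis genes had a median of 0.04 and a range of -0.15 to 0.16, and 0 reached an unadjusted p under 0.05. The 10 listed salvage genes, which rebuild nucleotides from bases and nucleosides, had a median of -0.11 and a range of -0.43 to 0.09. The 9 genes of deoxynucleotide supply had a median of -0.005, the 6 listed nucleoside and urate transporters 0.17, the 6 listed deaminases 0.16, the 8 listed genes of extracellular hydrolysis 0.02 and the 2 listed adenosine receptors -0.29, each with 0 called.

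**Figure D5:**
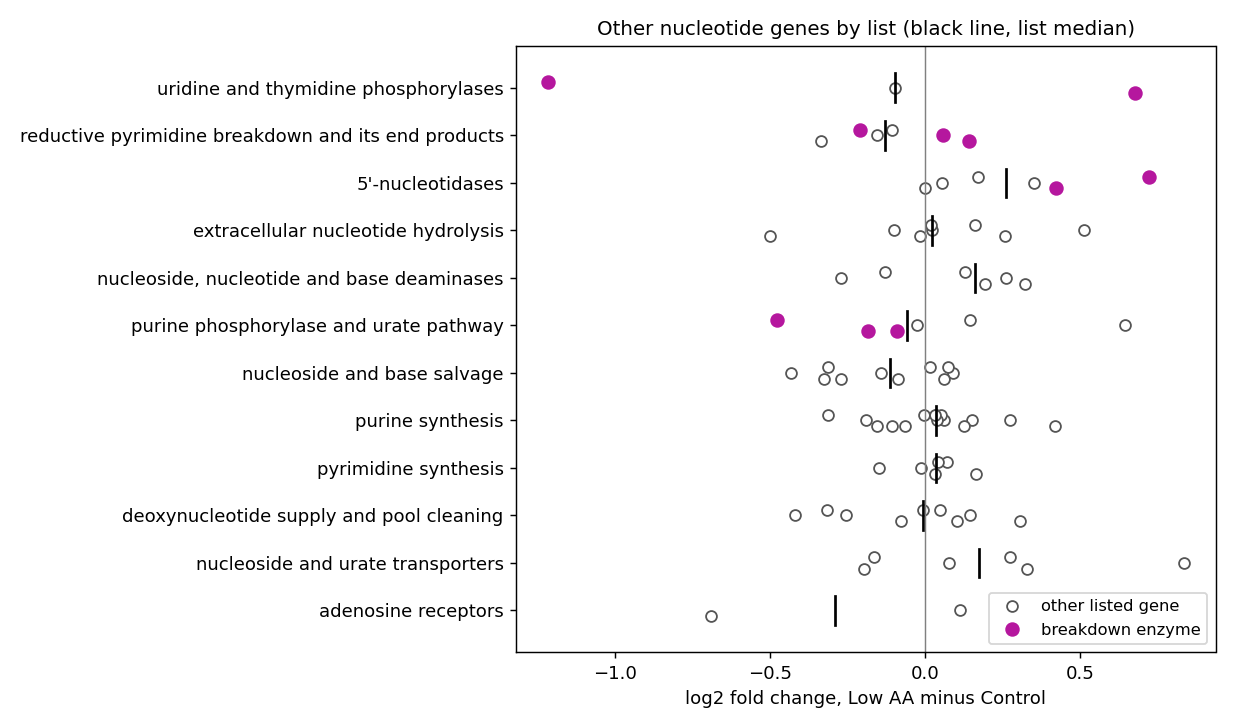
Log2 fold changes, Low AA minus Control, of the 83 listed genes of nucleotide metabolism in 12 lists, with the 10 breakdown enzymes filled and the other genes open, and a black line at the median of each list. The widest differences are those of Upp2 at -1.21 and of a transporter at 0.83, and no gene was called.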

How the data were processed

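Poly(A) RNA of whole liver, 4 mice on each diet, was sequenced as stranded libraries with single reads of 100 bases. Per the labels, the submitters' processing notes name STAR 2.5.0a, RSEM 1.2.6, edgeR 3.10.5 and the build mm10. The deposited signal of a gene in a mouse appears to be a read count that the authors multiplied by a factor and rounded. The sources used here do not state this, and it was inferred from gaps and doublings among low whole numbers, with factors of 0.902 to 1.11. At least 3 mice had 28 or more of every listed gene. The authors' own fold changes and FDR, in 2 further columns, were not used.

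Count models do not suit such values. limma 3.58.1 in R 4.3.3 was fitted to log2(value + 1) over all 11784 genes with a mean-variance trend, 1 term for diet and Benjamini-Hochberg adjustment. This scale understates changes of low genes. The code was tested on simulated data. Single values were compared by exact permutation. All 10 enzymes are named, with listed genes that did not overlap, paralogs and next steps. Clock and cell type markers are given as sums. The members and lists were chosen with earlier results of these data known. Positions are from GENCODE M21 on GRCm38, and promoter windows from RefSeq on GRCm38.p6, where 8 of the 10 enzymes matched. Alternatives were pseudocounts of 0.1 and 5, the 8000 highest genes, 2 rescalings, no trend, robust moderation and each mouse left out. The 7 enzymes not drawn by the study were added after the data were seen. Each mouse was 1 replicate.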

Additional observations from a re-analysis of the deposited data

Results flagged for a closer look

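Among 50 groups of 4 mice examined, for the enzymes and the genes set beside them, a mouse far from the rest of its diet was found in 3, where chance flags about 1 in 20 groups. Some of these genes, Cela1 and Dbp among them, were included with their values known, so the 3 cannot be read against that rate. Low AA mouse H1126 had the highest Tymp of its diet, with 2875 scaled read counts (gap over range 0.870 on the log2 scale). Without it the log2 fold change of Tymp was 0.61 (limma adjusted p = 0.292). Control mouse F7111 stood below the other Control mice for Sco2, with 786 (gap over range 0.941). Control mouse F2212 stood above the others for Cela1, with 36587 (gap over range 0.945).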

How the results depend on the processing

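Under the 7 settings other than leaving out a mouse, the 10 enzymes kept their direction and none was called (70 values, lowest limma adjusted p = 0.0991, for Nt5c2). With each mouse left out in turn, 79 of 80 values kept their direction and none was called (lowest limma adjusted p = 0.0815). The exception was Dpys, which lay between -0.029, without H1126, and 0.122, without H817. Leaving out a mouse removes a replicate and so precision too.

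The number of genes called, 47, was 19 among the 8000 highest genes and 30 without the mean-variance trend, and the cause was tested for neither. The number called lay between 16 and 77 with a mouse left out. It was 77 without F2212, 29 without F129, and 16, 19 and 21 without H817, H828 and H1126. The number of enzymes without overlap, 2, was 5 without H1315, where Upp2, Upb1 and Nt5e joined and 12.7% of all genes did not overlap, and 4 without F129, where Upp2 and Xdh joined and 9.73% did not. It lay between 2 and 5 in these 8 fits, and could not fall, since leaving out a mouse cannot make separate groups overlap. The number at an unadjusted p under 0.05, 4, lay between 3 and 5. Over the 7 enzymes that the study did not draw, these numbers were 0 and 1. No paired analysis was possible because no mouse code occurs on both diets. The scale factors are inferred, so sequencing depth is an estimate, and 4 mice a diet limit the precision to the intervals given.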

Other observations

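Some transporters of purines and one receptor were named after their values were seen. Abcg2, which exports urate among other substrates, had 3528 to 3810 scaled read counts on Low AA and 2750 to 3609 on Control, with F129 the 1 Control mouse inside the Low AA range (log2 fold change 0.27, SE 0.10, limma adjusted p = 0.323). Slc22a7, an organic anion transporter that also carries nucleobases, had 401 to 764 and 137 to 555 (log2 fold change 0.83, SE 0.41, limma adjusted p = 0.466). Adora1, the adenosine A1 receptor, ran from 283 to 1026 on Low AA and from 330 to 1112 on Control (log2 fold change -0.69, SE 0.44, limma adjusted p = 0.608).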
